A study of Homo sapiens with 8 samples.

Results

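This report describes 34 genes of homologous recombination, the Fanconi anemia pathway and the checkpoint that works with them, in 2 human lung adenocarcinoma lines exposed to the electrophile DEM (diethylmaleate in the paper's methods, whereas the title of the series spells it dimethylmaleate). The genes were listed by symbol with earlier results of these data known, so the list is not blind to the data. All 34 were found among the 57815 gene identifiers of the deposited tables. ABC1 and HCC4006 are established lines, and the labels give neither of them a mutation of *KEAP1* or *NRF2*, the sensor and the transcription factor of the response to electrophiles. Cells of each line were grown in low glucose DMEM with fetal bovine serum and received 100 µM DEM or the vehicle DMSO for 16 h. The 4 groups, vehicle ABC1, DEM ABC1, vehicle HCC4006 and DEM HCC4006, held 2 libraries each, numbered replicate 0 and replicate 1 in the labels, which makes 8 libraries of polyA-selected RNA. The paper's methods call the libraries of a group biological duplicates. Each line stands for a single tumor, and only 1 dose and 1 time point were measured.

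Homologous recombination repairs a double-strand break by copying the sister chromatid. The MRE11, RAD50 and NBN complex binds the break, nucleases trim it to a single-stranded tail, and BRCA1, PALB2 and BRCA2 prepare that tail for pairing with the sister strand. The Fanconi pathway unhooks crosslinks between the strands of DNA. Its core complex, with the ligase FANCL and the conjugating enzyme UBE2T, attaches ubiquitin to FANCI and FANCD2, while ATR and CHEK1 hold the cell cycle back when replication forks stall. Sister chromatids exist only after replication, and many of these genes are known to be expressed mostly in cycling cells.

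The values are FPKM, fragments scaled to transcript length and to the mapped fragments of the library, as the authors deposited them, so levels can be set side by side between genes. FPKM summed over all genes varied by a factor of 1.18 between the libraries. Depth per library is unknown from FPKM. The authors' deposited base means, the average of depth-scaled counts over the libraries of a line, were between 36.0 and 2641 for these genes in ABC1 (median 420) and between 29.7 and 2224 in HCC4006 (median 283). Within each line, limma tested DEM against vehicle on log2(FPKM + 1) for all genes whose mean reached 1 FPKM. Calls were made at a Benjamini-Hochberg adjusted p under 0.05, over all of these genes and not over the list. SE stands for the standard error of a log2 fold change. The pseudocount of 1 understates the fold change of genes with a low FPKM. The smallest two-sided p that an exact permutation of 2 and 2 libraries allows is 0.333, and all p-values below are those of limma. The NRF2 targets *NQO1* and *GCLM* served as a check of the treatment, and *NQO1* was at 56.0 and 82.8 FPKM in the vehicle and 193 and 221 FPKM in the DEM libraries of ABC1, against 273 and 269 with vehicle and 480 and 525 FPKM with DEM in HCC4006. All 7 NRF2 targets listed as a check were called higher in both lines. Of 9 markers of lung epithelium and adenocarcinoma, 6 had at least 1 FPKM in each ABC1 library and 8 in each HCC4006 library. The lung lineage factor *NKX2-1* (mean of 0.694 FPKM in vehicle ABC1) and the aspartic protease *NAPSA* (0.354 FPKM) were among those under 1 FPKM in ABC1, and surfactant protein *SFTPB* was listed at 0 in ABC1 and at 0.154 FPKM in vehicle HCC4006. Of 7 markers of leukocytes, endothelium, fibroblasts and smooth muscle, 2 reached 1 FPKM in ABC1 (*CD68* and *COL1A1*) and 3 in HCC4006 (also *ACTA2*). *CD68* had vehicle means of 2.04 FPKM in ABC1 and 96.7 FPKM in HCC4006. Vehicle means of *COL1A1* were 4.93 and 7.61 FPKM, and those of *ACTA2* were 0.117 and 4.88 FPKM, in the same order. *PTPRC* and *CD3E* were close to 0 in both lines.

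In HCC4006 cells, the genes of this repair machinery that passed the test were all lower with DEM, and every role held at least 1 of them. By limma, 15 of the 34 genes (44.1%) were called lower, whereas 10.7% of all 13542 genes tested in the line were called lower. The 15 were *NBN*, *EXO1* and *BLM* among the sensors and resection enzymes, *BRCA1* and *BARD1*, the strand exchange factors *RAD51C*, *XRCC2*, *RAD51AP1*, *RAD54L* and *RAD54B*, the Fanconi genes *FANCA*, *FANCG* and *FANCI*, and *TOPBP1* and *CHEK1* of the checkpoint. Their mean FPKM with DEM was 38.6% to 72.8% of that with vehicle, with a median of 54.4%. None of the 34 genes was called higher, against 8.45% of all genes, and 27 had an unadjusted p under 0.05 by limma, against 36.8% of all genes. The log2 fold change was below 0 for 33 of the 34, against 53% of all genes, and its median was -0.49, against -0.03 over all genes tested. Both DEM libraries lay below both vehicle libraries for 32 genes (94.1%, against 35.3% of all genes), including 17 of the 19 that were not called. Of the remaining genes, *RAD50* had both DEM libraries above both vehicle libraries, and the groups overlapped for *ATR*. In bulk RNA, fewer cells that express a gene and less RNA per cell cannot be told apart. Any 1 library left out lowered the number called, to 6 without vehicle replicate 0, 6 without DEM replicate 0, 5 without vehicle replicate 1 and 9 without DEM replicate 1, while the share of all genes called lower fell to 3.02%, 3.49%, 2.54% and 4.16% in the same order. With all genes tested, whatever their FPKM, *FANCG* and *FANCI* were called, 2 genes, against 0.631% of all genes.

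In ABC1 cells, 33 of the genes were tested, since *FANCB* (mean of 0.948 FPKM with vehicle) was under the minimum. None was called in either direction, against 1.2% of all 12635 genes called in either direction (0.768% higher and 0.435% lower), and 7 had an unadjusted p under 0.05, against 21.9% of all genes. The log2 fold change was below 0 for 25 of the 33, against 52.3% of all genes, with a median of -0.23, against -0.02 over all genes tested. Both DEM libraries lay below both vehicle libraries for 15 genes (45.5%, against 28.2% of all genes), the groups overlapped for 17, and *RAD50* had both DEM libraries above. The DEM libraries of ABC1 differed from each other more than those of HCC4006. The median of the members' deviations from the vehicle mean was -0.34 in DEM replicate 0 and -0.12 in DEM replicate 1 of ABC1, and -0.46 and -0.49 in the DEM libraries of HCC4006. Without DEM replicate 0 the median log2 fold change of the members in ABC1 was -0.12. A model fitted to all 8 libraries called 4 genes lower in ABC1 (*NBN*, *BLM*, *RAD51AP1* and *FANCD2*), against 6.24% of all genes.

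**Figure D1:**
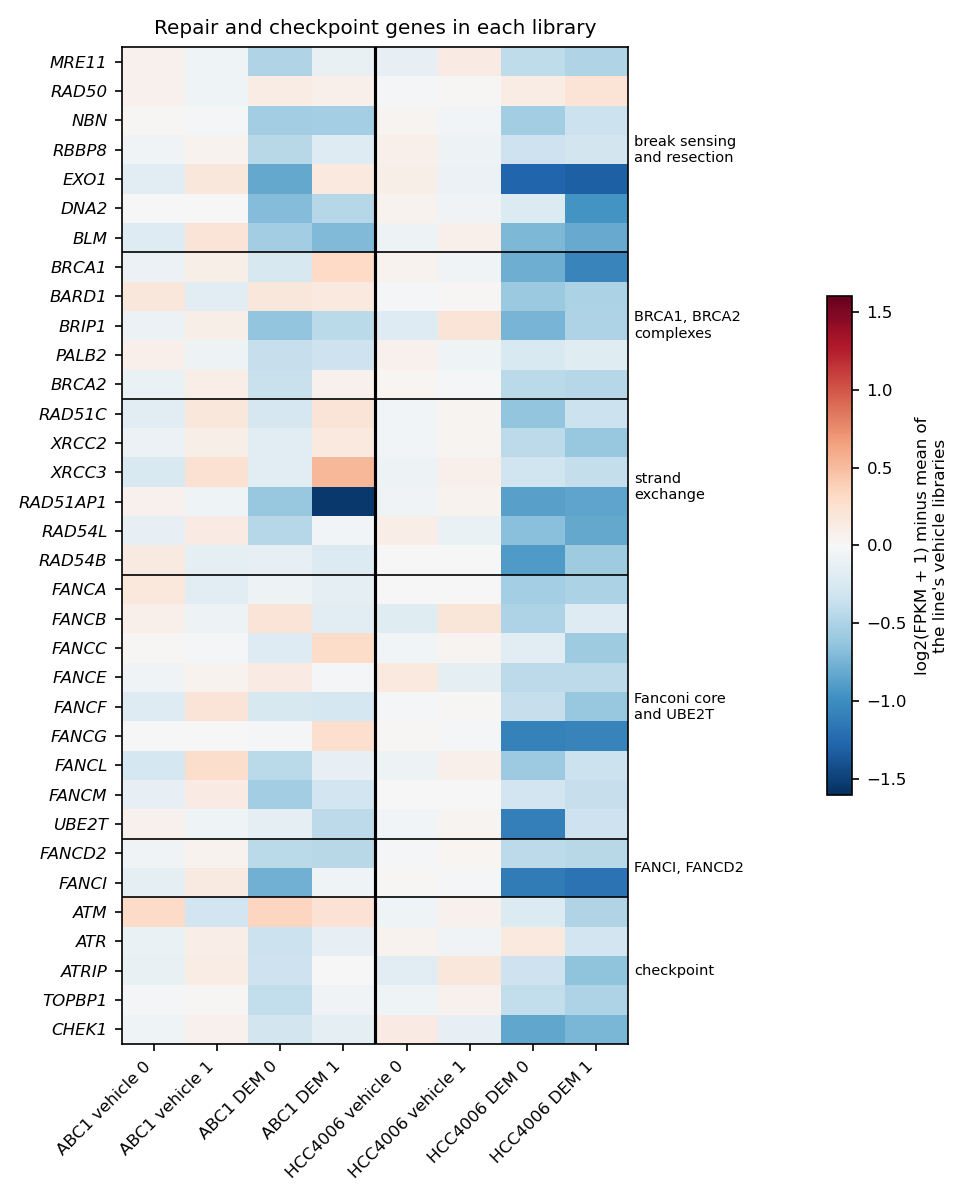
Color shows log2(FPKM + 1) minus the mean of the line's vehicle libraries for each of the 34 genes (rows, grouped by role) in each library (columns). In HCC4006 both DEM columns are blue for 32 genes, and in ABC1 the column of DEM replicate 0 (median -0.34) is darker than that of replicate 1 (median -0.12).

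**Figure D2:**
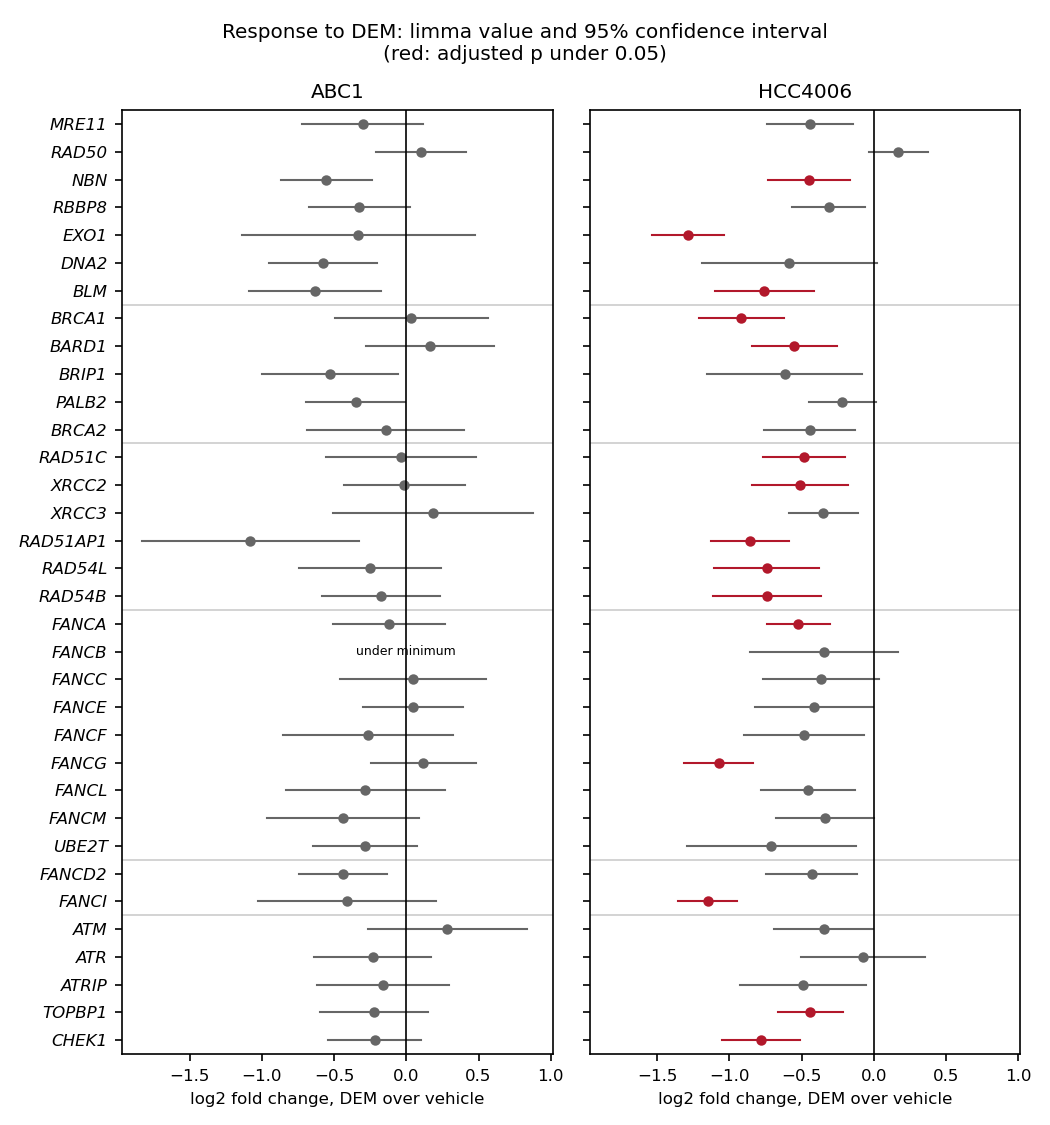
Points are log2 fold changes of DEM over vehicle from limma and lines are 95% confidence intervals, with 2 libraries per group, for ABC1 on the left and HCC4006 on the right. The 15 red points, all in HCC4006 and all below 0, are genes with an adjusted p under 0.05.

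Because the called genes moved together, promoters of genes with large decreases and of the flattest genes are shown. RefSeq promoter sequences (GRCh38, from the table used here) were found for 30 of the 34 genes (all but *NBN*, *DNA2*, *RAD54B* and *FANCI*), with 40 transcription starts, and 39 starts were placed on GRCh37 by exact match. Each window below holds the last 100 bases before the start, on the strand of the gene. The windows are chr1:242011406-242011505 (plus strand) for *EXO1*, chr9:35079940-35080039 (minus) for *FANCG*, chr17:41277382-41277481 (minus) for *BRCA1*, chr12:4647956-4648055 (plus) for *RAD51AP1* and chr11:125496151-125496250 (plus) for *CHEK1*, called lower in HCC4006, and chr3:142297576-142297675 (minus) for *ATR* and chr5:131892569-131892668 (plus) for *RAD50*, not called. Capitals mark, on either strand, an E2F word, the CCAAT box or the cell cycle homology region. The E2F word was spelled TTGGCGC, alternatively spelled TTCCCGC, further spelled TTGCCGC or else spelled TTCGCGC. The box was spelled CCAAT, and the homology region was spelled TTTGAA.
EXO1: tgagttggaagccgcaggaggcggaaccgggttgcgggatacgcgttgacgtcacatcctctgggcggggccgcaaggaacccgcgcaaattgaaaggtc
FANCG: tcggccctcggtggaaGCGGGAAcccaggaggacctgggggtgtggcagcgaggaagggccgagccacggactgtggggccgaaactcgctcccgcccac
BRCA1: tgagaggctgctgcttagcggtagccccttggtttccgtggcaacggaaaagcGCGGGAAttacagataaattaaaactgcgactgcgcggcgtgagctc
RAD51AP1: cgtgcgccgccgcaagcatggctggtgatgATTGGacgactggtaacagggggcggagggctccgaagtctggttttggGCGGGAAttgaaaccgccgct
CHEK1: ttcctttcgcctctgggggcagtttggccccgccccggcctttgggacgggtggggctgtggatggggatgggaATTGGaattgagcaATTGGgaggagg
ATR: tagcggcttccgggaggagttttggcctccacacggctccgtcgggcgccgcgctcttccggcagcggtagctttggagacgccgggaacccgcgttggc
RAD50: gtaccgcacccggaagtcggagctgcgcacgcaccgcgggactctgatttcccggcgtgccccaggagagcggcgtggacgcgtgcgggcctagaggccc
The windows of *FANCG*, *BRCA1* and *RAD51AP1* hold an E2F word, which the printed strand shows as GCGGGAA and the opposite strand as TTCCCGC, those of *RAD51AP1* and *CHEK1* hold the CCAAT box, and those of *EXO1*, *ATR* and *RAD50* hold none of these words.

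Over the 250 bases before each start, an E2F word stood in 11 of the 40 member promoters (27.5%), against 10.9% of all 35116 promoters in the table and 16.2% of those of the genes tested in HCC4006. Among the promoters of genes called lower in HCC4006 it was 8 of 18 (44.4%), and among those of genes not called 3 of 22 (13.6%). Several starts of 1 gene overlap, so these promoters are not independent, and the words of 7 letters were chosen after longer ones that contain them and open with 1 more T had been counted. The longer words were in 2 of the 40 member promoters (5%), against 2.79% of all promoters and 4.13% of those of the genes tested in HCC4006. For these words the promoters of called and uncalled genes did not stand apart, with 1 of 18 (5.56%) and 1 of 22 (4.55%). The CCAAT box was in 50% of the promoters of called genes and in 50% of the others, against 32% of all promoters. The cell cycle homology region was in 10% of the member promoters, against 13.3% of all promoters and 8.98% of those of the genes tested in HCC4006, and all 4 matches were in the 22 promoters of genes not called (18.2%), with 0 in the 18 of genes called lower. The core of the antioxidant response element to which NRF2 binds, searched as TGACNNNGC on both strands, was in 1 of the 40, that of *FANCD2*, against 10.9% of all promoters. A match is a run of letters and was not tested as a site.

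Among the 7 genes that sense and trim the break, 3 were called lower in HCC4006 and the median log2 fold change was -0.45, while in ABC1 the median was -0.33. *EXO1* (ENSG00000174371.12, chr1:242011269-242058450 in GRCh37, plus strand), the exonuclease of long-range resection, was at 26.2 and 23.1 FPKM with vehicle and 9.64 and 9.39 FPKM with DEM in HCC4006. In ABC1 the values were 25 and 32.6 FPKM with vehicle and 15.8 and 31.9 FPKM with DEM. In HCC4006 both DEM libraries were far below vehicle and close to each other, while in ABC1 only DEM replicate 0 was below both vehicle libraries. *EXO1* thus had a log2 fold change of -1.29 in HCC4006 (SE 0.10, limma adjusted p = 0.00197), the largest decrease among the 34 genes in that line. In ABC1 it was -0.33 (SE 0.33, limma adjusted p = 0.593).

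*BLM*, the helicase that works with the resection nucleases and dissolves joined chromatids, fell in HCC4006 from 4.51 and 5.13 FPKM with vehicle to 2.54 and 2.34 FPKM with DEM. ABC1 cells had 8.06 and 11.0 FPKM with vehicle and 6.10 and 5.40 FPKM with DEM. The groups did not overlap in either line. On the log2 scale *BLM* changed by -0.76 in HCC4006 (SE 0.14, limma adjusted p = 0.0196) and -0.63 in ABC1 (SE 0.19, limma adjusted p = 0.14). *NBN*, the subunit that brings ATM to the break, had the lowest adjusted p of the members tested in ABC1, though it was not called there. Its FPKM was 12.7 and 12.3 with vehicle and 8.14 and 8.25 with DEM in ABC1, and 12.4 and 11.7 with vehicle and 7.89 and 9.24 with DEM in HCC4006. *NBN* was thus lower with DEM in every library of both lines, by about the same amount. Values of log2 fold change for *NBN* were -0.55 in ABC1 (SE 0.13, limma adjusted p = 0.0959) and -0.45 in HCC4006 (SE 0.12, limma adjusted p = 0.0453). The helicase and nuclease *DNA2* had log2 fold changes of -0.58 and -0.58 in ABC1 and HCC4006, but in HCC4006 its DEM libraries were apart, at 4.73 and 2.44 FPKM, and the limma adjusted p was 0.146. Its value there was -0.95 without DEM replicate 0 and -0.22 without DEM replicate 1. The nuclease *MRE11* (-0.44, limma adjusted p = 0.0528) and its cofactor *RBBP8* (-0.31, limma adjusted p = 0.0862) were not called in HCC4006.

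*RAD50*, the ATPase that tethers the broken ends, was the exception. Its FPKM was 29.6 and 30.6 with vehicle and 32.6 and 35.3 with DEM in HCC4006, and 20.1 and 18.3 with vehicle and 21.0 and 20.3 with DEM in ABC1. Both DEM libraries were above both vehicle libraries in each line, by small amounts. *RAD50* had a log2 fold change of 0.17 in HCC4006 (95% confidence interval -0.03 to 0.37, limma adjusted p = 0.197) and 0.10 in ABC1 (limma adjusted p = 0.676). In the annotation, 76.9% of the exon bases of *RAD50* are shared with another gene model on the same strand that the deposited tables do not list.

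Of the 5 genes of the BRCA complexes, 2 were called lower in HCC4006, and the median log2 fold change was -0.55 there and -0.14 in ABC1. *BRCA1* (ENSG00000012048.15, chr17:41196312-41322262 in GRCh37, minus strand), the ubiquitin ligase and scaffold that promotes resection, was at 23.6 and 21.6 FPKM with vehicle and 12.7 and 10.4 FPKM with DEM in HCC4006. In ABC1 it was at 15.7 and 18.0 FPKM with vehicle and 14.0 and 21.2 FPKM with DEM. DEM thus brought it to 51.0% of vehicle in HCC4006, while in ABC1 1 DEM library lay below and the other above the vehicle libraries. *BRCA1* had a log2 fold change of -0.92 in HCC4006 (SE 0.12, limma adjusted p = 0.00771) and 0.03 in ABC1 (SE 0.21, limma adjusted p = 0.942). *BARD1*, the partner of BRCA1 in the ligase, was at 6.53 and 6.77 FPKM with vehicle and 4.06 and 4.39 FPKM with DEM in HCC4006. The ABC1 libraries had 5.43 and 4.01 FPKM with vehicle and 5.42 and 5.31 FPKM with DEM. The HCC4006 groups stood apart and the ABC1 groups overlapped, with log2 fold changes of -0.55 (limma adjusted p = 0.0297) and 0.16 (limma adjusted p = 0.634).

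*BRIP1*, the helicase bound to BRCA1, is expressed at a low level, with 1.53 and 2.37 FPKM with vehicle and 0.745 and 1.07 FPKM with DEM in HCC4006. ABC1 libraries had 3.06 and 3.62 FPKM with vehicle and 1.80 and 2.22 FPKM with DEM. All DEM libraries were below the vehicle libraries of their line, but the log2 fold changes of -0.62 and -0.53 did not pass the test (limma adjusted p = 0.1 in HCC4006 and 0.19 in ABC1). *PALB2*, which links BRCA1 to BRCA2, had values of -0.22 in HCC4006 and -0.35 in ABC1. *BRCA2*, which acts on the resected tail, had values of -0.44 (limma adjusted p = 0.062) and -0.14 (limma adjusted p = 0.744).

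The strand exchange factors had the highest share of calls, 5 of 6 genes in HCC4006, with a median log2 fold change of -0.63, against -0.11 in ABC1. *RAD51AP1* (ENSG00000111247.10, chr12:4647964-4669213 in GRCh37, plus strand), which stimulates the pairing of strands, was at 10.4 and 11.4 FPKM with vehicle and 5.48 and 5.63 FPKM with DEM in HCC4006. The libraries of ABC1 had 21.2 and 19.3 FPKM with vehicle and 12.9 and 6.26 FPKM with DEM. It was lower in every DEM library, and its DEM libraries of ABC1 differed from each other by more than any other gap between its duplicates. Its log2 fold change was -0.86 in HCC4006 (SE 0.11, limma adjusted p = 0.00733) and -1.08 in ABC1 (SE 0.31, limma adjusted p = 0.131), where it was the largest decrease among the 33 genes.

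*RAD54L*, a motor protein that remodels DNA during strand exchange, was at 6.06 and 5.05 FPKM with vehicle and 3.12 and 2.70 FPKM with DEM in HCC4006, and at 6.30 and 7.77 against 4.84 and 6.76 FPKM in ABC1. Its relative *RAD54B* was at 6.78 and 6.72 FPKM with vehicle and 3.13 and 4.21 FPKM with DEM in HCC4006, and at 7.65 and 6.04 against 6.14 and 5.70 FPKM in ABC1. Both motor proteins had a log2 fold change of -0.74 in HCC4006 (limma adjusted p = 0.0237 and 0.0257), and in ABC1 their groups overlapped. *RAD54B* shares 66.0% of its exon bases with *FSBP* on the same strand, and the authors' base mean for it was only 29.7 in HCC4006, so how reads were divided between these genes bears on its value. *RAD51C*, which acts with *XRCC2* and *XRCC3* in strand exchange, was at 27.6 and 29.3 FPKM with vehicle and 18.1 and 22.1 FPKM with DEM in HCC4006, and at 16.0 and 20.7 against 14.9 and 21.1 FPKM in ABC1. *XRCC2* was at 5.25 and 5.65 FPKM with vehicle and 3.82 and 3.24 FPKM with DEM in HCC4006, and at 10.1 and 11.7 against 9.49 and 12.2 FPKM in ABC1. *XRCC3* was at 18.1 and 20.3 FPKM with vehicle and 15.2 and 14.5 FPKM with DEM in HCC4006, and at 9.52 and 13.8 against 10.1 and 17.1 FPKM in ABC1. All 3 genes were lower with DEM in each HCC4006 library and overlapped in ABC1. Their log2 fold changes in HCC4006 were -0.49 for *RAD51C* (limma adjusted p = 0.0373), -0.51 for *XRCC2* (limma adjusted p = 0.0493) and -0.35 for *XRCC3* (limma adjusted p = 0.0579), so *XRCC2* lay just inside and *XRCC3* just outside the threshold. Exons of *KLC1* on the opposite strand cover 76.7% of the exon bases of *XRCC3*, and the strand setting of the authors' counting is not given in the sources used here.

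Of the 9 genes of the Fanconi core complex and its conjugating enzyme, 2 were called lower in HCC4006, and all 9 had both DEM libraries below both vehicle libraries there, with a median log2 fold change of -0.46. *FANCG* (ENSG00000221829.5, chr9:35073832-35080001 in GRCh37, minus strand), a scaffold subunit of the core complex, was at 14.9 and 14.6 FPKM with vehicle and 6.43 and 6.52 FPKM with DEM in HCC4006. In ABC1 it was at 20.0 and 19.9 FPKM with vehicle and 19.5 and 24.2 FPKM with DEM. The duplicates of HCC4006 lay close together and far from the other group, whereas in ABC1 the DEM libraries lay on either side of vehicle. For *FANCG* the log2 fold change was -1.07 in HCC4006 (SE 0.10, limma adjusted p = 0.00301) and 0.12 in ABC1 (SE 0.15, limma adjusted p = 0.68). *FANCA*, the partner of FANCG in the complex, was at 17.4 and 17.6 FPKM with vehicle and 11.7 and 12 FPKM with DEM in HCC4006, and at 21.0 and 16.4 against 17.5 and 16.5 FPKM in ABC1. Its log2 fold change in HCC4006 was -0.52 (SE 0.09, limma adjusted p = 0.0157), and its ABC1 groups overlapped.

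The other core genes were not called in HCC4006, with log2 fold changes between -0.71 (*UBE2T*) and -0.34 (*FANCM*). *UBE2T* had the DEM libraries of HCC4006 apart, at 8.84 and 15.7 FPKM against 19.4 and 20.6 FPKM with vehicle, and its limma adjusted p was 0.0886. Its log2 fold change was -0.33 without DEM replicate 0 and -1.09 without DEM replicate 1. *FANCM*, the translocase that brings the core complex to DNA, was at 2.33 and 3.0 FPKM with vehicle and 1.47 and 1.94 FPKM with DEM in ABC1, and at 3.45 and 3.4 against 2.57 and 2.43 FPKM in HCC4006. Its DEM libraries were below vehicle in both lines, and its value of -0.44 in ABC1 was the lowest of the core genes there (limma adjusted p = 0.299). The ligase *FANCL* had values of -0.46 in HCC4006 (limma adjusted p = 0.0616) and -0.28 in ABC1 (limma adjusted p = 0.501). *FANCB* and *FANCF*, with vehicle means of 2.07 and 2.49 FPKM in HCC4006, are low enough for the pseudocount to shrink their values of -0.35 and -0.49.

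The targets of the core complex, *FANCI* and *FANCD2*, which form a clamp on DNA once ubiquitin is attached, differed in the size of their change in HCC4006. *FANCI* (ENSG00000140525.13, chr15:89787176-89860492 in GRCh37, plus strand) was at 33.3 and 32.4 FPKM with vehicle and 14.6 and 13.9 FPKM with DEM in HCC4006. The values in ABC1 were 43.4 and 52.8 FPKM with vehicle and 27.8 and 45.8 FPKM with DEM. The groups of HCC4006 stood far apart, and in ABC1 DEM replicate 1 lay between the vehicle libraries. The log2 fold change of *FANCI* was -1.15 in HCC4006 (SE 0.08, limma adjusted p = 0.00163), the lowest adjusted p among the 34 genes, and -0.41 in ABC1 (SE 0.25, limma adjusted p = 0.386). *FANCD2* was at 4.58 and 4.87 FPKM with vehicle and 3.30 and 3.20 FPKM with DEM in HCC4006, and at 19.7 and 21.3 against 15.0 and 14.8 FPKM in ABC1. It was lower with DEM in all libraries of both lines, with log2 fold changes of -0.43 in HCC4006 (limma adjusted p = 0.0666) and -0.44 in ABC1 (limma adjusted p = 0.132). *FANCI* and *FANCG* were the genes called lower in HCC4006 under all 11 alternative settings or left-out libraries.

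Among the 5 checkpoint genes, 2 were called lower in HCC4006. *CHEK1* (ENSG00000149554.8, chr11:125495058-125546150 in GRCh37, plus strand), the effector kinase downstream of ATR, was at 39.1 and 32.6 FPKM with vehicle and 19.6 and 21.1 FPKM with DEM in HCC4006. In ABC1 it was at 37.3 and 41.3 FPKM with vehicle and 31.7 and 35.5 FPKM with DEM. DEM libraries were below vehicle in both lines, to 56.8% in HCC4006 and 85.5% in ABC1. This gave a log2 fold change of -0.78 in HCC4006 (SE 0.11, limma adjusted p = 0.00961) and -0.22 in ABC1 (SE 0.13, limma adjusted p = 0.382). *TOPBP1*, the activator of ATR, was at 30.2 and 33.3 FPKM with vehicle and 24 and 22.3 FPKM with DEM in HCC4006, and at 51.2 and 52.6 against 39.3 and 49.9 FPKM in ABC1. Its DEM libraries were also lower in both lines, with values of -0.44 in HCC4006 (limma adjusted p = 0.0269) and -0.22 in ABC1 (limma adjusted p = 0.439).

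Neither apical kinase was called in either line. *ATR* was at 6.91 and 6.38 FPKM with vehicle and 7.53 and 5.16 FPKM with DEM in HCC4006, and at 6.40 and 7.62 against 5.30 and 6.32 FPKM in ABC1. It was the only one of the 34 genes whose HCC4006 groups overlapped, with a log2 fold change of -0.08 (95% confidence interval -0.51 to 0.36, limma adjusted p = 0.787). *ATM*, the kinase that responds to double-strand breaks, was at 7.35 and 8.21 FPKM with vehicle and 6.56 and 5.27 FPKM with DEM in HCC4006, and at 14.4 and 9.02 against 14.8 and 13.5 FPKM in ABC1. The vehicle libraries of ABC1 were far apart for *ATM*, and its values were -0.35 in HCC4006 (limma adjusted p = 0.13) and 0.28 in ABC1 (limma adjusted p = 0.501). *ATRIP*, the partner of ATR, had a value of -0.49 in HCC4006 (limma adjusted p = 0.105), and 26.7% of its exon bases are shared with *TREX1* on the same strand.

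**Figure D3:**
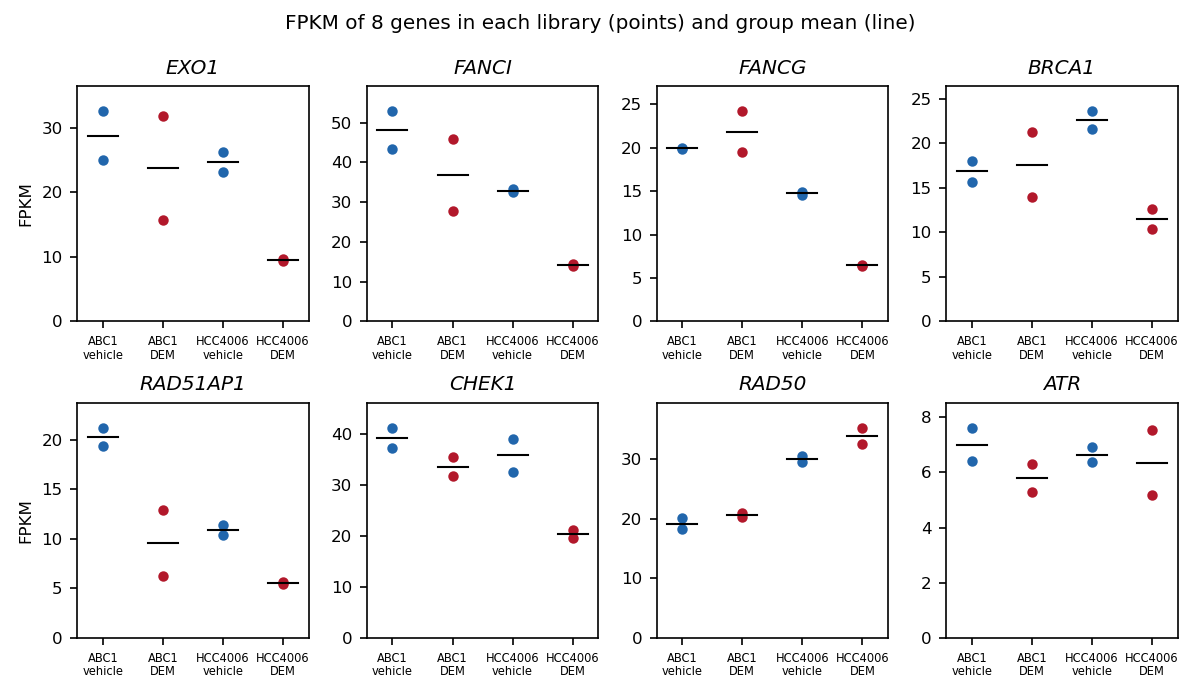
FPKM (linear axes from 0) of 8 genes in each of the 8 libraries, with a line at the mean of each group of 2. *EXO1*, *FANCI*, *FANCG*, *BRCA1*, *RAD51AP1* and *CHEK1* are lower with DEM in HCC4006, *RAD50* is slightly higher and the groups of *ATR* overlap.

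Whether the lines differed in their response was tested by the interaction of line and treatment over the 8 libraries. Of the 34 genes, 1 was called, against 0.636% of all 13682 genes tested, and 8 had an unadjusted p under 0.05, against 15.1% of all genes. The gene called was *FANCG*, whose log2 fold change was lower by 1.19 in HCC4006 than in ABC1, a difference of -1.19 (95% confidence interval -1.58 to -0.80, SE 0.17, limma adjusted p = 0.0365). It was no longer called with a pseudocount of 0.1 or when any single library other than DEM replicate 0 of ABC1 was left out. The next largest differences were those of *EXO1* (-0.95, 95% confidence interval -1.91 to 0.00), *BRCA1* (-0.95, -1.60 to -0.31), *FANCI* (-0.74, -1.44 to -0.04) and *BARD1* (-0.71, -1.18 to -0.25), none of which was called (limma adjusted p of 0.329, 0.177, 0.308 and 0.163 in this order). The difference was below 0 for 26 of the 34 genes, against 52.3% of all genes, with a median of -0.34. So for most genes called lower in HCC4006 a different response of ABC1 was not shown. Of these 15 genes, 12 had a log2 fold change below 0 in ABC1 as well, 5 of them with both DEM libraries below both vehicle libraries (*NBN*, *BLM*, *RAD51AP1*, *TOPBP1* and *CHEK1*). Among all genes tested in ABC1, 52.3% were below 0 and 28.2% had both DEM libraries below both vehicle libraries. Of the 15, the 3 with a value above 0 in ABC1 were *BRCA1*, *BARD1* and *FANCG*. For 12 of the 15 the 95% confidence interval in ABC1 held 0, and for 5 it held the value measured in HCC4006. The 14 genes lower with DEM in all libraries of both lines were *MRE11*, *NBN*, *RBBP8*, *DNA2*, *BLM*, *BRIP1*, *PALB2*, *RAD51AP1*, *FANCF*, *FANCM*, *UBE2T*, *FANCD2*, *TOPBP1* and *CHEK1*. By line, both DEM libraries lay below both vehicle libraries for 28.2% of all genes in ABC1 and 35.3% in HCC4006. The share of all genes for which this held in both lines was not computed.

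The lines entered the treatment with different levels of these genes. Median vehicle levels over the 34 genes were 11.7 FPKM in ABC1 and 8.56 FPKM in HCC4006, and 21 genes in ABC1 and 16 in HCC4006 had a vehicle mean of at least 10 FPKM. Between the vehicle libraries, 7 genes were called higher and 12 lower in HCC4006 than in ABC1. The shares were 20.6% and 35.3%, against 37.3% and 30.4% of all genes, and in either direction 19 of the 34 were called, against 67.7% of all genes. By unadjusted p under 0.05 it was 21 of the 34, against 70.8%. Calls between the lines were thus no more frequent among these genes than among all genes. *FANCD2* differed most, with a mean of 20.5 ± 1.17 FPKM (SD, n = 2) in vehicle ABC1 and 4.73 ± 0.205 FPKM (SD, n = 2) in vehicle HCC4006. That difference was -1.91 on the log2 scale (SE 0.11, limma adjusted p = 8.83e-05).

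Also lower in vehicle HCC4006 were *FANCE*, a core subunit that contacts FANCD2 (log2 difference -1.36), *XRCC2* (-0.88), *BLM* (-0.84), *RAD51AP1* (-0.84), *TOPBP1* (-0.69), *RBBP8* (-0.67), *DNA2* (-0.64), *UBE2T* (-0.62), *BRIP1* (-0.57), *FANCI* (-0.53) and *FANCG* (-0.41). Higher in vehicle HCC4006 were *PALB2* (0.77), *XRCC3* (0.69), *FANCB* (0.65), *RAD50* (0.62), *RAD51C* (0.62), *BRCA2* (0.45) and *BRCA1* (0.41). Of the 15 genes called lower with DEM in HCC4006, 8 differed between the vehicle libraries of the lines, in both directions. These comparisons share the vehicle libraries with those of DEM. Without vehicle replicate 0 or replicate 1 of HCC4006 fewer of these genes were called, and the share of all genes called fell as well. With all genes tested whatever their FPKM, 2 genes were called higher, against 18.1% of all genes. The difference of *XRCC3* was 0.45 without vehicle replicate 0 of ABC1, and that of *BRIP1* was -0.36 without vehicle replicate 0 of HCC4006.

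**Figure D4:**
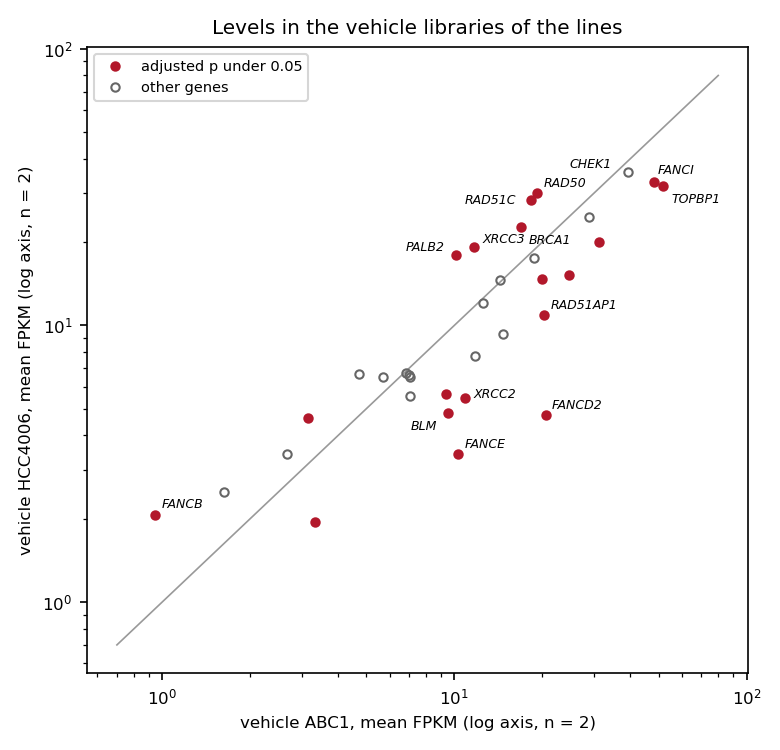
Mean FPKM of each of the 34 genes in vehicle HCC4006 against vehicle ABC1 (log axes, 2 libraries each), with the line of equal levels. The 19 filled red points are genes called different (7 above and 12 below the line), and *FANCD2* lies farthest from it, at 20.5 and 4.73 FPKM.

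The other genes of the pathway were taken from lists of 46 further homologous recombination and Fanconi genes, 20 further checkpoint genes and 13 genes of end joining, the repair route that needs no sister chromatid. In HCC4006, 78 of these 79 were tested, 17 were called lower and 2 higher, against 10.7% and 8.45% of all genes, with -0.19 as the median log2 fold change. In ABC1 none of the 78 was called (11 of 78 had an unadjusted p under 0.05 by limma, against 21.9% of all genes), and the median was -0.06. In HCC4006, 9 of the 46 recombination and Fanconi genes were called lower and 1 higher, 7 of the 20 checkpoint genes lower and 1 higher, and 1 of the 12 end joining genes tested lower. The largest decreases were those of *CLSPN*, the adaptor that presents CHEK1 to ATR (-1.34, limma adjusted p = 0.00204), and *WEE1*, the kinase that restrains CDK1 (-0.93, limma adjusted p = 0.00798). *MND1*, an accessory factor of strand exchange (-0.86, limma adjusted p = 0.0278), and *TONSL*, a factor of replication-coupled recombination (-0.77, limma adjusted p = 0.00718), followed. *CLSPN* was at 14.9 and 16.2 FPKM with vehicle and 5.73 and 5.30 FPKM with DEM in HCC4006, and at 11.9 and 15.1 against 7.29 and 8.16 FPKM in ABC1 (-0.72, limma adjusted p = 0.0933). It was lower with DEM in every library of both lines.

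The genes called higher in HCC4006 were *ZSWIM7*, a factor of homologous recombination (0.42, limma adjusted p = 0.0359), and *RNF8*, a ubiquitin ligase at breaks (0.52, limma adjusted p = 0.0485). *RNF8* was at 4.49 and 5.59 FPKM with vehicle and 7.36 and 7.88 FPKM with DEM in HCC4006, but at 7.08 and 6.17 against 4.22 and 4.33 FPKM in ABC1, where its value was -0.53. It was not called in ABC1. None of the 78 other pathway genes was called for a different response of the lines, against 0.636% of all genes. Of the end joining genes, *XRCC5*, a Ku subunit, was called lower (-0.51, limma adjusted p = 0.0107), and the median of the 12 was -0.00. The counts of the other pathway genes called lower in HCC4006 fell to 8 without vehicle replicate 0, 6 without DEM replicate 0, 3 without vehicle replicate 1 and 7 without DEM replicate 1, against 3.02%, 3.49%, 2.54% and 4.16% of all genes in this order, and none of them was called higher in any of these fits.

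S phase genes moved in the same direction as the repair genes in both lines, and the genes of G2 and mitosis did so in HCC4006. Of 19 S phase and origin licensing genes tested, 18 were called lower in HCC4006 (94.7%, against 10.7% of all genes). Their median log2 fold change was -0.98. The exception was *CCNE1*, cyclin E1 (-0.17, limma adjusted p = 0.253), and the largest decrease was that of *CCNE2*, cyclin E2 (-1.42, limma adjusted p = 0.0106). In ABC1 none of the 19 was called, against 1.2% of all genes, and 8 had an unadjusted p under 0.05 by limma, against 21.9%. All 19 had a log2 fold change below 0 there, and the median was -0.50. Of 20 genes of G2 and mitosis, 11 were called lower (55%) and 1 higher (5%) in HCC4006, against 10.7% and 8.45% of all genes. The median was -0.37. The gene called higher was the spindle protein gene *HMMR* (0.31, limma adjusted p = 0.0404). In ABC1 none of the 20 was called and the median was -0.04. By library, the median deviation of the S phase genes from the vehicle mean was -0.74 and -0.21 in DEM replicates 0 and 1 of ABC1, and -1.02 and -0.96 in those of HCC4006. The 34 repair genes were at -0.34 and -0.12 in ABC1, and at -0.46 and -0.49 in HCC4006. Within HCC4006 their DEM libraries stood in the opposite order to that of the S phase genes. Within ABC1, DEM replicate 0 was also the lower one for the end joining genes, at -0.06 against 0.06. For the genes of G2 and mitosis the values were -0.07 and 0.03 in ABC1, and -0.40 and -0.31 in HCC4006. The part of the cell cycle genes in the result of the repair genes was not tested.

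**Figure D5:**
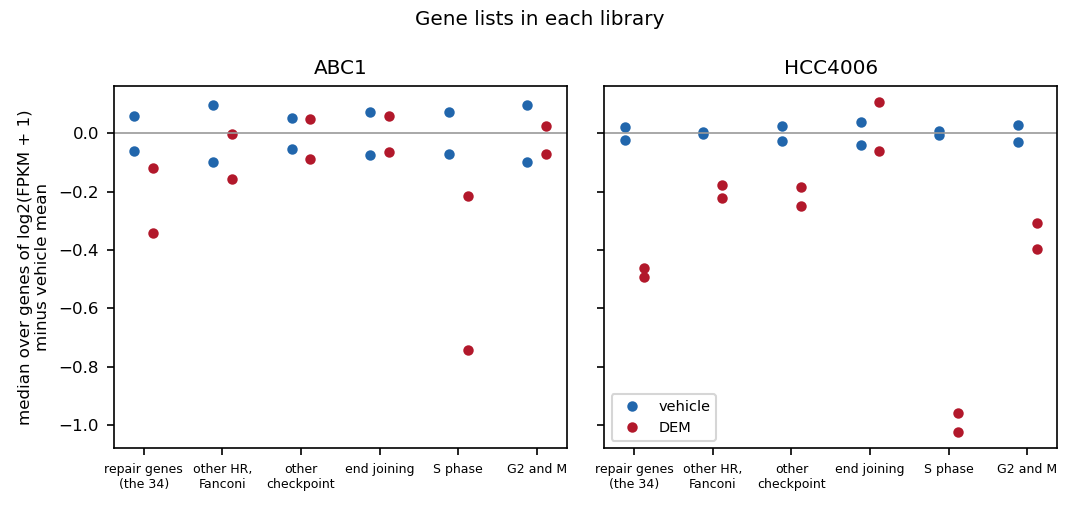
Each point is the median over the genes of a list of log2(FPKM + 1) minus the mean of the line's vehicle libraries, for 1 library (blue vehicle, red DEM). In HCC4006 the 34 repair genes are at -0.46 and -0.49 with DEM, the S phase genes at -1.02 and -0.96, and the end joining genes on either side of 0.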

How the data were processed

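RNA was measured in 2 DEM and 2 vehicle libraries of each line. The authors prepared polyA-selected, strand-specific libraries and deposited FPKM per gene. The submitters' processing notes name cutadapt 1.15, STAR 2.5.3a, Cuffnorm, HTSeq and DESeq2 on hg19 (GRCh37.p13), whereas the paper's methods name TopHat and Cufflinks, and the setting for strand is not given in the sources used here. A second kind of file, 1 per line, holds the base mean, a signal the authors made by averaging depth-scaled counts over the libraries of the line. It was read as a measure of depth. The fold changes, standard errors, test statistics and p-values of the authors in the same files were not used. Here, limma 3.58.1 (R 4.3.3) was run on log2(FPKM + 1), its variance prior following the mean, for genes whose mean reached 1 FPKM in the libraries fitted, and Benjamini-Hochberg adjustment covered all genes tested. The code was tested on simulated data. Intervals are 95% confidence intervals, and SD is over the 2 libraries of a group. Standard errors are those limma gave for a comparison, from all libraries fitted. Alternatives were a pseudocount of 0.1, no minimum or a minimum of 5 FPKM, scaling by the median of ratios, no trend, a replicate block, a model of all 8 libraries and each library left out. The genes, lists and tests were chosen with earlier results of these data known. Values in every library are given for genes called, for those whose response differed between the lines, and for the largest increase and decrease in each role, the others by range and counts. Of the other pathway genes, up to 4 called genes of the largest change were named for each line and direction. *UHRF1* and *PECAM1* were matched to no identifier and are not analysed here. Of the other pathway genes, 1 is not reported here by name.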

Additional observations from a re-analysis of the deposited data

Results flagged for a closer look

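The response of *FANCG* to DEM differed between the lines in the interaction test. Its log2 fold change was -1.07 in HCC4006 and 0.12 in ABC1, a difference of -1.19 (standard error 0.17, limma adjusted p = 0.0365 over 13682 genes). The FPKM fell in both HCC4006 libraries, from 14.9 and 14.6 to 6.43 and 6.52, while in ABC1 the DEM libraries were at 19.5 and 24.2 against 20.0 and 19.9 with vehicle. Over the alternatives and left-out libraries the call was lost with a pseudocount of 0.1, with a replicate block and in each fit without 1 library except that without DEM replicate 0 of ABC1.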

How the results depend on the processing

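The direction of the members' median did not change under any alternative. In HCC4006 it was -0.55 with a pseudocount of 0.1, -0.46 with scaling by the median of ratios and between -0.53 and -0.46 with 1 library left out, and in ABC1 between -0.34 and -0.12 with 1 library left out. The number of calls depended on the fit. Of the 34 genes, 15 were called lower in HCC4006, 2 without an expression minimum and 5 to 9 with 1 library left out. In ABC1, where none was called, a replicate block called 5 (*NBN*, *DNA2*, *BLM*, *RAD51AP1* and *FANCD2*) against 9.2% of all genes. The model of all 8 libraries called 4 there, against 6.24% of all genes. Equal replicate numbers were not shown to pair samples, since the correlation of their deviations was 0.258 in ABC1 and 0.0544 in HCC4006 with 2 pairs each. The block called 17 of the 34 lower in HCC4006, against 13.6% of all genes. The difference between lines, called for 1 gene, was called for 0 with a pseudocount of 0.1, for 0 with a replicate block and for 0 to 1 with 1 library left out. Between the vehicle groups, 2 of the 34 genes were called higher without a minimum, against 18.1% of all genes. With 1 library left out 1 to 7 were called higher, against 22.5% to 38.9% of all genes. In the same fits 6 to 12 were called lower, against 18.6% to 29.2% of all genes. Of the other pathway genes in ABC1, the block called 4 higher and 4 lower (9.38% and 9.2% of all genes) and the model of all 8 libraries 4 higher and 3 lower (6.17% and 6.24% of all genes), below the shares of all genes. In HCC4006 the number of other pathway genes called higher was 0 without a minimum, against 0.579% of all genes. It was 4 with a minimum of 5 FPKM (11.9% of all genes), 4 with the median of ratios (9.55%) and 1 without a trend (6.03%). The number called lower was 1 without a minimum (0.631% of all genes) and 10 in the model of all 8 libraries (7.31%). The cause was not tested. The sign of some values turned. Scaling by the median of ratios put *XRCC2* in ABC1 at 0.0012, and with 1 library left out the log2 fold change in ABC1 ranged from -0.82 to 0.15 for *EXO1*, -0.25 to 0.32 for *BRCA1*, -0.016 to 0.34 for *BARD1*, -0.36 to 0.075 for *BRCA2*, -0.27 to 0.20 for *RAD51C*, -0.18 to 0.15 for *XRCC2*, -0.16 to 0.54 for *XRCC3*, -0.29 to 0.052 for *FANCA*, -0.20 to 0.30 for *FANCC*, -0.036 to 0.13 for *FANCE*, -0.032 to 0.27 for *FANCG*, -0.028 to 0.60 for *ATM* and -0.34 to 0.0078 for *ATRIP*, and in HCC4006 from -0.31 to 0.16 for *ATR*. A low FPKM, as for *FANCB* and *BRIP1*, limits what could be called. Standard errors were wider in ABC1 (median over all genes 0.17, against 0.12 for HCC4006). The members' median change was also smaller in ABC1, at -0.23 against -0.49. Which of these accounts for the lack of calls in ABC1 was not tested.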
